A study of Mus musculus with 45 samples.

Results

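The Frizzled family (Fzd1 to Fzd10) was followed through 45 RNA-seq libraries of mouse intestinal stem cells and of organoids grown from fetal intestine. The members were the 10 genes that carry those names in both expression tables, out of 52636 genes listed, and every member was found in both. Levels are given in the deposited unit CPM, the reads of a gene scaled by the library's total of reads on genes.

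Frizzled proteins are membrane receptors with 7 membrane-spanning segments and an extracellular cysteine-rich domain that binds Wnt ligands. Together with the co-receptors Lrp5 or Lrp6 they pass the signal to Dishevelled proteins, which stabilises beta-catenin, and without these co-receptors some members act in planar cell polarity. The amount of receptor at the cell surface is kept down by the E3 ubiquitin ligases Rnf43 and Znrf3. R-spondins, bound by Lgr4, Lgr5 or Lgr6, take these ligases away from the membrane and so leave more Frizzled in place. In the gut, Wnt signalling of this kind maintains the stem cells at the crypt base, where Lgr5 is the classical marker, and Fzd7 and Fzd5 are the members best known from the intestinal epithelium.

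Of the 45 libraries, 15 came from sorted cells. In the Lgr5-DTReGFP strain, whose knock-in allele disrupts Lgr5 and reports it with eGFP, eGFP+ve cells were taken from the whole small intestine of heterozygous (HE) and homozygous (KO) embryos at E16.5, in 2 pools each. Pool 1 held 7 HE and 2 KO embryos of one litter, and pool 2 held 8 HE and 6 KO embryos of another. The same cells came from 2 single HE embryos at E18.5, and from 2 HE adults of 2 months, duodenum and ileum apart. A further 5 libraries held eGFP+ve/RFP+ve ileal cells of 2-month-old adults with an Lgr5-driven, tamoxifen-inducible Cre, 48 h after 2 mg of tamoxifen: 2 were Cre/+ (Cre HE), and 3 were Cre/flox (cKO), in which exon 16 of the remaining Lgr5 copy is deleted. All of these groups, the controls included, carried at least one Lgr5 knock-in allele. The other 30 libraries were organoids from E17.5 intestine of the Lgr5-DTReGFP strain at passage 4, from 3 WT cultures (WT5, WT10 and WT30) and 2 KO cultures (KO2 and KO7), each grown with mouse Rspo1, Rspo2 or Rspo3 at 100 or 5 ng/ml. All of these groups come from the same 5 cultures, so libraries of different ligands or doses are not independent.

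In the sorted cells the steps between low values gave depths of 1275548 to 9979027 reads on genes, with the HE pools of E16.5 shallowest: 1 read was worth 0.784 CPM in pool 1 and 0.504 CPM in pool 2. Organoid depths were not determined here. At E16.5 Lgr5 itself read 104 and 125 CPM in HE, and KO pools 1 and 2 had 64.8 and 51.7 CPM. In the Cre libraries Lgr5 read 52.8 and 87.6 CPM in HE and 89.2, 109 and 90.7 CPM in cKO, a sum over all exons that does not check the deletion of one, and 2 of these 5 libraries carry the other genotype in the study's own sample list. Xist and Ddx3y divided the Cre HE (male pattern) from the cKO libraries (female pattern) and the WT (female) from the KO (male) cultures, so that sex and Lgr5 genotype cannot be told apart in those comparisons. Sex was not balanced in the others either. E16.5 KO pool 1 had a male pattern (Xist 1.55 and Ddx3y 81.6 CPM), while the other E16.5 pools expressed both genes. E18.5 embryo 1 had a male and embryo 2 a female pattern, and the adult Lgr5-DTReGFP libraries all had a male pattern. The 6 epithelial markers summed to 2460 CPM or more in every sorted library, while 10 mesenchymal markers summed to 838 to 1823 CPM in the E16.5 HE pools, 185 to 506 CPM in the E16.5 KO pools and 79.4 to 84.0 CPM at E18.5. In bulk libraries such as these, fewer cells of a type and less RNA per cell cannot be told apart.

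Fzd5 had the highest mean level of the family in both tables and Fzd7 the next. To compare genes, CPM was divided by the length of the merged exons. On this scale of CPM per kilobase the means over the 15 sorted libraries were 27.4 for Fzd5, 8.59 for Fzd7, 2.58 for Fzd6, 2.54 for Fzd1, 1.93 for Fzd2, 1.56 for Fzd4, 1.20 for Fzd9, 0.711 for Fzd8, 0.644 for Fzd3 and 0.322 for Fzd10. Over the 30 organoid libraries they were 73.7 for Fzd5, 14.7 for Fzd7, 5.45 for Fzd4, 3.60 for Fzd6, 3.21 for Fzd2, 1.08 for Fzd8, 0.750 for Fzd1, 0.683 for Fzd9, 0.320 for Fzd3 and 0.00615 for Fzd10. Below Fzd5 the order is loose and depends on the group. Fzd1 was above Fzd7 in E16.5 HE pool 1, at 6.91 against 4.50 CPM per kilobase. At 5 ng/ml Fzd4 was above Fzd7 in all 5 Rspo3 libraries, for instance at 10.5 against 6.83 CPM per kilobase in WT30, and in WT30 with Rspo2. In WT30 with 100 ng/ml of Rspo2, Fzd7 (30.9 CPM per kilobase) was level with Fzd5 (30.4). In the WT organoids at 100 ng/ml, for instance, Fzd2, Fzd6 and Fzd4 overlapped one with the next, and so did Fzd1, Fzd9, Fzd8 and Fzd3. Fzd10 was listed at 0 in 23 of the 30 organoid libraries and never above 0.15 CPM.

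Positions and upstream sequence are given for Fzd5, Fzd7 and Fzd4. Fzd5 (ENSMUSG00000045005) lies on chromosome 1, bases 64730558 to 64737751 of the minus strand in GRCm38, with 2 exons. Fzd7 (ENSMUSG00000041075) is a single-exon gene on the same chromosome, bases 59482424 to 59486955 of the plus strand. Fzd4 (ENSMUSG00000049791) has 2 exons on chromosome 7, bases 89404355 to 89413134 of the plus strand. The bases just before their RefSeq starts are shown because these 3 members moved with stage, region or Rspondin dose. They were not the only ones: Fzd2 and Fzd6 also moved with dose but had no upstream sequence to show, and Fzd9 was a low gene. A TCF/LEF factor, the DNA-binding partner of beta-catenin, prefers CTTTGA or CTTTGT. Capitals mark these letters, CCAAT and GGGCGG (a GC box), on either strand.
Fzd5, chr1:64737752-64738000, minus strand, GRCm38: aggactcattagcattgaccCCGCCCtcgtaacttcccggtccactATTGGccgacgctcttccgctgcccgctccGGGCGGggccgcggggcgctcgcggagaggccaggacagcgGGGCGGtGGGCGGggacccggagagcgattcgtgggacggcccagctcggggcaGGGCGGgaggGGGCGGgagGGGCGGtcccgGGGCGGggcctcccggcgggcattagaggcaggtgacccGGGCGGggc
Fzd7, chr1:59481897-59482146, plus strand, GRCm38: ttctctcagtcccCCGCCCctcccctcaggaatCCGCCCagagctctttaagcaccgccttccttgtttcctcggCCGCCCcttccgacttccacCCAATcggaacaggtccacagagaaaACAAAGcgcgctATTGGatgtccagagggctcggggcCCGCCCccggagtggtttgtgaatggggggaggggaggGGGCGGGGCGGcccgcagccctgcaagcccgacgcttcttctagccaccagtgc
Fzd4, chr7:89404223-89404354, plus strand, GRCm38: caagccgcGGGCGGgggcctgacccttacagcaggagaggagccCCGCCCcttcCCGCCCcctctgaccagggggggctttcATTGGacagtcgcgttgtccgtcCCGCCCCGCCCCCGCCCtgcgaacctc
The Fzd7 stretch held 1 CTTTGT, written on the other strand as ACAAAG, whereas the Fzd5 and Fzd4 stretches held neither form. The Fzd4 stretch shown is shorter, at 132 bases, and its whole window of 250 bases held neither as well. Of the other members with a window, Fzd1 held 1 of each form, and Fzd9 and Fzd10 held neither. A CTTTGA or CTTTGT occurred in 27.6% of 32851 RefSeq windows of 250 bases, CCAAT in 33.8% and GGGCGG in 32.7%, so single matches are common, and a match in letters is not a binding site. All 3 stretches held at least 1 CCAAT, and GGGCGG occurred 9 times before Fzd5, 6 times before Fzd7 and 6 times before Fzd4, with overlapping copies counted. The Fzd5 stretch also lies inside Gm38058, a provisional gene model of the plus strand (chromosome 1, bases 64736240 to 64740607) that shares 1512 bases with Fzd5. Its value was 23.2 to 28.4% of that of Fzd5 over the organoids, with Pearson's r = 0.993 over the 30 libraries, and 5.10 to 28.9% over the sorted cells, with r = 0.082 over 15. Whether reads were counted by strand is not given in the sources used here, so reads of these overlapping genes cannot be told apart.

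The share of Fzd5 in the family sum, taken per kilobase, differed among sorted groups. At E16.5 Fzd5 made up 60.4 and 62.3% of the sum in HE, and 57.2 and 63.4% in KO. It was 69.0 and 70.2% at E18.5, 51.6 and 53.1% in the adult duodenum, and 47.0 and 56.4% in the adult ileum. Fzd7 made up 8.92 and 13.3% at E16.5 in HE, 10.6 and 12.8% at E18.5, 25.3 and 26.5% in the duodenum and 22.2 and 25.4% in the ileum. Thus the share of Fzd7 in these 4 adult HE libraries lay above that in the 6 embryonic libraries, as the share of Fzd5 lay below it. In the Cre HE ileum Fzd7 made up 19.6 and 22.2%, also above the embryos. Fzd5 made up 51.0 and 61.7% there, which overlaps with the embryos. Fzd1 held 7.45 and 13.7% in the E16.5 HE pools and no more than 5.13% in the E18.5 and adult HE libraries.

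**Figure D1:**
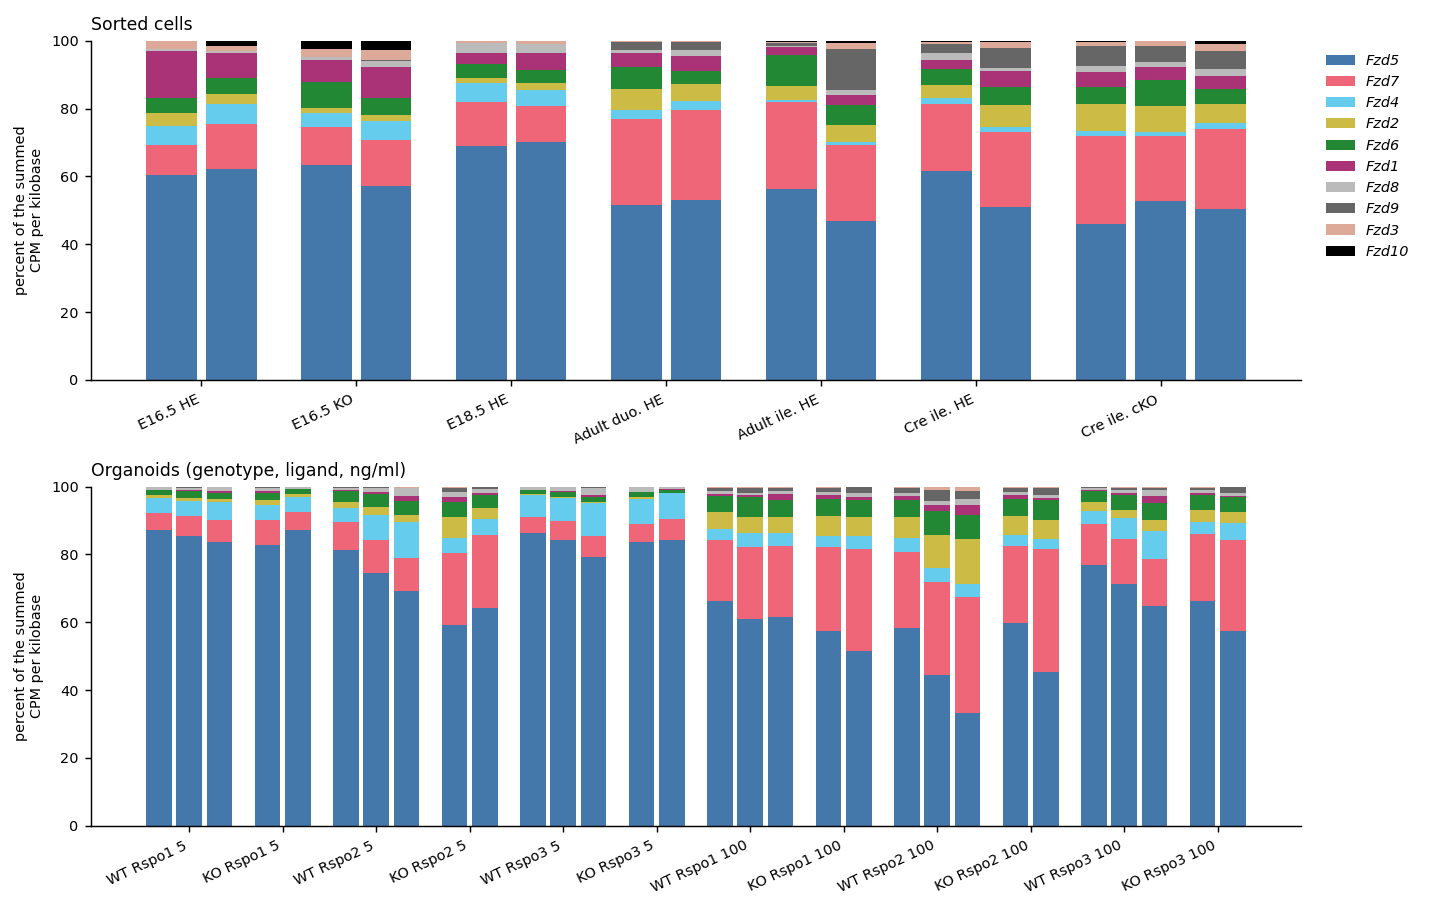
Share of each Frizzled gene in the family's summed CPM per kilobase of merged exon, in percent, per library, for the sorted cells and the organoids. Fzd5 takes 60.4 and 62.3% in the E16.5 HE pools and 51.6 and 53.1% in the adult duodenum, and the Fzd7 share runs from 12.2 to 34.0% in WT organoids at 100 ng/ml.

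The comparison of KO with HE at E16.5 asks what loss of Lgr5 does in the fetal progenitors. None of the 9 members tested passed the threshold, an adjusted p of 0.1 and a fold change of 1.5 by limma on log2(CPM + 1), where 0.527% of all 17276 genes did. An unadjusted p under 0.05 is a looser limit, for which the share of all genes is not given here. At that limit the count was 1 member by limma and 0 by edgeR on reads recovered from the value steps. That member was Fzd10. HE pools 1 and 2 had 0 and 2.05 CPM of it, KO pools 1 and 2 had 3.85 and 4.80 CPM. Both KO values were above both HE values, but 3 reads are worth 2.35 and 1.51 CPM in the HE pools, and the log2 difference of 1.60 (SE 0.60) had an adjusted p of 0.286 by limma. When all 15 sorted libraries shared one estimate of the spread, the limma adjusted p of Fzd10 was 0.0712. Fzd10 met the 1 CPM required for testing through the KO pools, since HE pool 1 was at 0 CPM. The share of all genes called in that fit is not given here.

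Fzd5 in pools 1 and 2 was at 211 and 188 CPM for HE and at 221 and 217 CPM for KO, a log2 difference of 0.14 with an interval of 2 SE from -0.14 to 0.41. Fzd7 was at 20.4 and 26.3 CPM in HE and at 25.3 and 33.4 CPM in KO, which overlap (log2 difference 0.32, interval -0.19 to 0.82). Fzd2, a receptor for Wnt5a, was at 7.10 and 4.55 CPM in HE and lower in both KO pools, at 2.70 and 3.20 CPM (log2 difference -0.77, SE 0.45, limma adjusted p = 0.475). Fzd6, a polarity receptor, was at 11.0 and 10.1 CPM in HE and higher in both KO pools, at 18.8 and 13.5 CPM, with a limma adjusted p of 0.463. In all, 5 of the 10 members had pools that did not overlap, 4 of them higher and Fzd2 lower in KO, and none of these was called. With 2 pools a side, genes without a difference often split in this way. The share of all genes that did so is not given here, so the count is not read as a result. Between the same pools 3 of 5 enterocyte markers and 1 of 9 tested mesenchymal markers were called lower in KO. The mesenchymal sum was nevertheless lower in both KO pools, at 185 to 506 CPM against 838 to 1823 CPM in HE. The part of such cells in the Frizzled values was not tested.

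From E16.5 to E18.5 in HE cells, 1 of 8 tested members was called, against 49.6% of all 18408 genes. Fzd8, a canonical Wnt receptor, was at 1.60 and 1.55 CPM in the E16.5 pools and at 10.2 and 9.45 CPM in the E18.5 embryos. It rose by 2.07 on the log2 scale (SE 0.32, limma adjusted p = 0.00356), and the groups did not overlap. The 2 values at E16.5 rest on 2 and 3 reads, however.

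Fzd5 was at 211 and 188 CPM at E16.5 and at 286 and 307 CPM at E18.5. Both embryos were above both pools, and the adjusted p was 0.00692 by limma, but the log2 difference of 0.57 (SE 0.11) fell short of the 1.5-fold limit. Fzd7 behaved likewise on a smaller scale, with 34.9 and 30.3 CPM at E18.5 against 20.4 and 26.3 CPM (log2 difference 0.47, SE 0.20, limma adjusted p = 0.0913), also short of 1.5-fold. Fzd4 (18.9 and 17.2 CPM, then 22.6 and 20.6 CPM) and Fzd6 (11.0 and 10.1 CPM, then 11.6 and 11.7 CPM) were slightly higher in both embryos, with limma adjusted p of 0.327 and 0.695. On the other side, Fzd1 was at 29.0 and 13.7 CPM at E16.5 and at 8.35 and 13.6 CPM at E18.5, and Fzd3, a polarity receptor of developing axons and hair cells, was at 12.3 ± 5.94 CPM (SD, n = 2) and then at 6.00 and 5.95 CPM. Their log2 differences, -0.84 (SE 0.40) and -0.86 (SE 0.38), had limma adjusted p of 0.128 and 0.105. Pool 1 of E16.5 was higher than pool 2 for each member from Fzd1 to Fzd6 and for Fzd8, and lower for Fzd7 and Fzd10, and it was also the pool with the larger mesenchymal sum. Between the stages all 9 mesenchymal and all 5 endothelial markers tested fell and all 5 stem-cell markers rose, and their part in the Frizzled values was not tested. The call of Fzd8 was lost when either E18.5 embryo was left out, although the log2 difference stayed at 2.02 or above. Leaving out either pool of E16.5 leaves 1 library in that group, and the called members of those fits are not read as a result.

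Later, from E18.5 to the adult, 5 of 9 tested members were called, 2 higher and 3 lower in the adult, against 19.0% of all 19554 genes. The 3 that fell were Fzd4, Fzd5 and Fzd8. Fzd4, the receptor that also binds Norrin, was at 22.6 and 20.6 CPM at E18.5, at 9.10 and 7.45 CPM in the duodenum and at 1.95 and 2.75 CPM in the ileum. It fell by 2.03 on the log2 scale (SE 0.51, limma adjusted p = 0.0337). Fzd5 was at 286 and 307 CPM at E18.5 and at 175, 157, 173 and 116 CPM in adult duodenum 1 and 2 and ileum 1 and 2. Fzd8 was back at 3.05 and 4.05 CPM in the duodenum and 1.00 and 3.25 CPM in the ileum, and it fell by 1.57 on the log2 scale (SE 0.38, limma adjusted p = 0.0303). In all 3 genes each adult library lay below both E18.5 embryos.

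The 2 members that rose were Fzd2 and Fzd9. Fzd2 was at 3.50 and 4.40 CPM at E18.5, at 10.8 and 7.65 CPM in the duodenum and at 6.60 and 6.20 CPM in the ileum (log2 difference 0.81, SE 0.26, limma adjusted p = 0.0778). Fzd9, the member encoded in the interval deleted in Williams syndrome, was at 0 and 0.25 CPM at E18.5, which is 0 and 1 read, and at 2.7, 2.5, 1.00 and 9.85 CPM in the 4 adult libraries. The fitted log2 difference of 1.87 (SE 0.60, limma adjusted p = 0.0747) depends on the added 1 CPM at such levels, and no ratio is given. Fzd9 reached the 1 CPM required for testing through the adult libraries alone, and its call is counted among the 5. Fzd7 was higher in all 4 adult libraries, at 56.2, 51.4, 51.1 and 35.8 CPM, than in the E18.5 embryos, at 34.9 and 30.3 CPM, but did not pass (log2 difference 0.55, SE 0.20, limma adjusted p = 0.102). Fzd6 ran from 8.35 to 19.5 CPM in the adult and overlapped with E18.5, and so did Fzd3. All 5 calls were lost when either E18.5 embryo was left out, which leaves 1 library in that group. Without duodenum library 1 the called members were 3, and when every gene with a nonzero value was tested Fzd2 and Fzd9 lost their calls. Under TMM scaling Fzd7 gained one (limma adjusted p = 0.0674). The 4 adult libraries come from 2 mice. With 1 mean per mouse 7 members were called, the same 5 and, both lower in the adult, Fzd1 (log2 difference -0.68, limma adjusted p = 0.0814) and Fzd3 (-1.09, limma adjusted p = 0.0853), while Fzd7 had a limma adjusted p of 0.0232 but fell short of 1.5-fold. The E18.5 cells were those of the whole small intestine, so that stage and region cannot be told apart. With the duodenum alone as the adult group 7 members were called and with the ileum alone 5. The shares of all genes called are not given here for these fits or for those with 1 mean per mouse or a library left out. Their counts are therefore not read as a result. The 5 Paneth cell markers summed to 124 to 135 CPM at E18.5 and to 11349 CPM or more in the adult libraries. All 5 of them were called higher, and 3 of 5 enterocyte markers were called lower. The part of those cells in the Frizzled values was not tested.

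**Figure D2:**
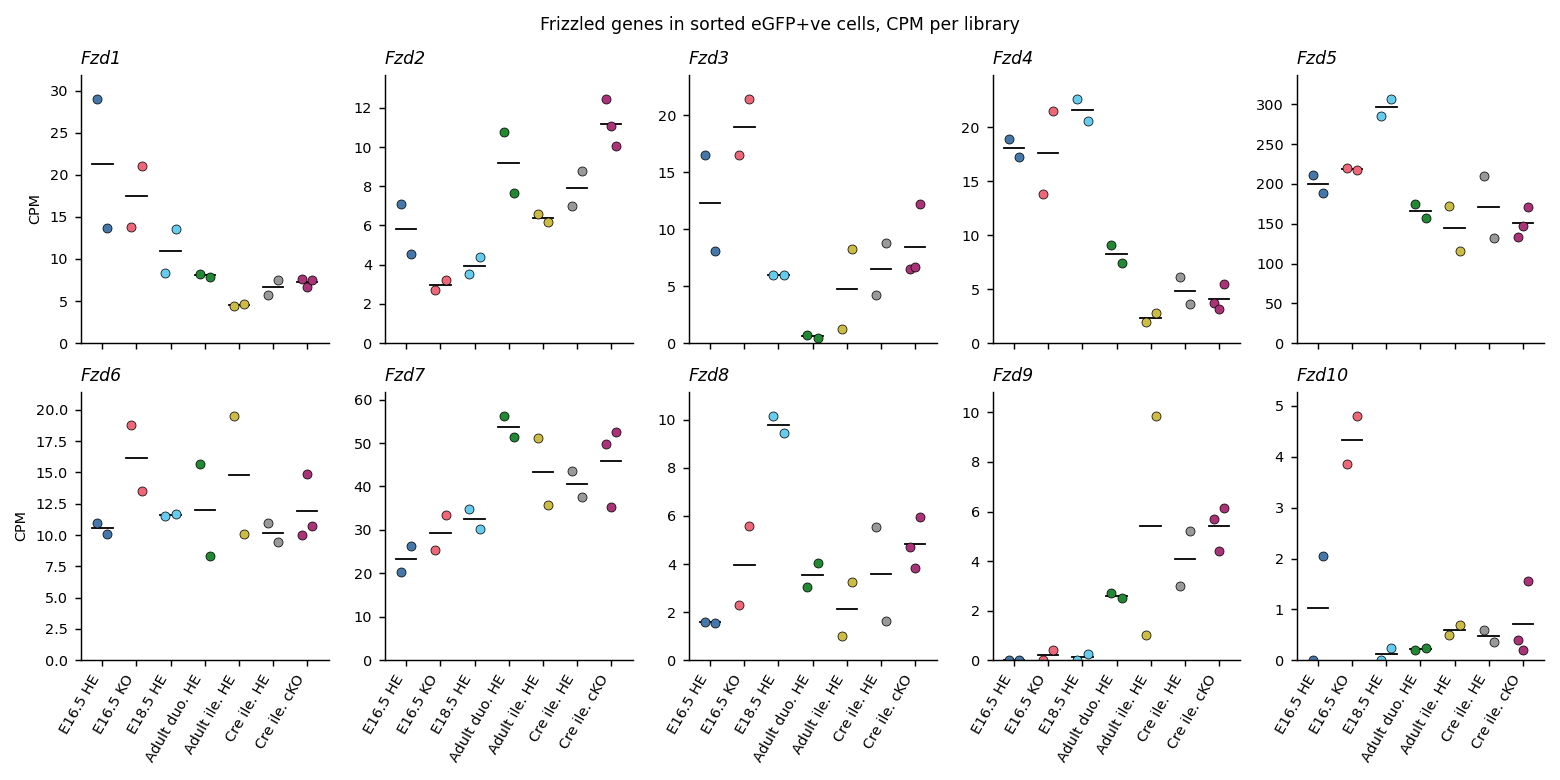
CPM of each Frizzled gene in the 15 sorted-cell libraries by group, 1 point per library and a bar for the group mean. Fzd4 runs from 20.6 and 22.6 CPM at E18.5 to 1.95 and 2.75 CPM in the adult ileum, and Fzd8 peaks at E18.5 with 9.45 and 10.2 CPM.

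Within the adult gut 1 of 9 tested members differed between ileum and duodenum, against 6.88% of all 18608 genes. This was Fzd4, at 9.10 and 7.45 CPM in the duodenum and at 1.95 and 2.75 CPM in the ileum of the same 2 mice. It was lower in the ileum in both mice, by 1.47 on the log2 scale (SE 0.29, limma adjusted p = 0.0390). Fzd1 was lower as well, at 4.40 and 4.60 CPM against 8.25 and 7.90 CPM, with a limma adjusted p of 0.219. Fzd3 was higher in both ileum libraries, at 1.25 and 8.25 CPM against 0.75 and 0.45 CPM, with a limma adjusted p of 0.283. Fzd5 overlapped between the regions, and Fzd7 was lower in both ileum libraries by a log2 difference of -0.32 whose interval ran from -0.74 to 0.10. The call of Fzd4 was lost when any of the 4 libraries was left out, with log2 differences between -1.30 and -1.65, and it was also lost when every gene with a nonzero value was tested. Without ileum library 1, Fzd3 had a log2 difference of 2.54. This sets ileum library 2 alone, at 8.25 CPM, against duodenum values under 1 CPM. All 5 enterocyte markers were lower in the ileum, with sums of 63.9 to 75.9 CPM against 310 to 472 CPM, and their part in the Fzd4 value was not tested.

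Deletion of Lgr5 in the adult ileum was read 48 h after tamoxifen. None of the 9 members tested was called in cKO against Cre HE cells by limma, none had an unadjusted p under 0.05, and 0.0504% of all 19848 genes were called. Fzd5 was at 210 and 132 CPM in Cre HE and at 133, 148 and 171 CPM in cKO, which overlap, and the interval of the log2 difference ran from -0.57 to 0.27. Fzd7 was at 43.7 and 37.7 CPM in Cre HE and at 49.8, 35.4 and 52.5 CPM in cKO, with an interval from -0.25 to 0.56. Fzd2 alone did not overlap, at 7.00 and 8.80 CPM against 12.5, 11.1 and 10.1 CPM (log2 difference 0.46, SE 0.23, limma adjusted p = 0.864). The share of all genes that did not overlap is not given here. With the genotypes of the study's sample list in place of the labels, the log2 difference of Fzd2 was -0.04. Those of Fzd1, Fzd3, Fzd4, Fzd5, Fzd6 and Fzd9 also changed sign, with 0 members called.

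The organoid cultures asked how each Rspondin, at a high and at a low dose, acts on cells with and without Lgr5. The higher dose moved the family in both directions. Over 6 dose comparisons, 29 of 54 tests of members passed an adjusted p of 0.05 by limma, 20 of them higher and 9 lower at 100 than at 5 ng/ml. With WT organoids, 4 members were higher and 2 lower with Rspo1, against 40.9% and 12.5% of all 19130 genes. With Rspo2, 3 were higher and 2 lower, against 24.3% and 9.12%. With Rspo3, 5 were higher and 1 lower, against 37.8% and 13.7%. In the KO organoids the counts were 4 and 2 with Rspo1, against 21.9% and 7.86% of genes, and 4 and 2 with Rspo3, against 32.7% and 11.8%. With Rspo2 in KO, 0 members were called by limma, against 0.115% of genes higher and 0% lower. At the looser limit of an unadjusted p under 0.05 there were 2 members, and the share of genes is not given here.

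Fzd7 was higher at 100 ng/ml in each of 15 pairs of libraries of the same culture and ligand. With Rspo1 it was at 74.6, 87.7 and 103 CPM in WT10, WT5 and WT30 at 100 ng/ml and at 28.7, 34.7 and 39.7 CPM at 5 ng/ml. With Rspo2 the same cultures had 99.1, 86.4 and 140 CPM and then 49.5, 48.9 and 43.9 CPM, and with Rspo3 59.2 to 66.1 CPM and then 31.0, 27.2 and 31.0 CPM. The WT libraries of the 2 doses did not overlap with any ligand, and the log2 differences were 1.34, 1.15 and 1.03 (SE 0.15 each, limma adjusted p at most 1.13e-05). In KO7 and KO2 Fzd7 was at 98.6 and 102 CPM against 31.9 and 40.5 CPM with Rspo1, and at 83.2 and 95.0 CPM against 29.6 and 28.4 CPM with Rspo3. These were rises by 1.46 and 1.58 on the log2 scale (SE 0.18 each, limma adjusted p = 2.44e-05 and 6.25e-07). With Rspo2 it was at 117 and 100.2 CPM against 76.2 and 89.9 CPM, a log2 difference of 0.38 (SE 0.18, limma adjusted p = 0.717).

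The largest log2 difference of any member with dose was that of Fzd2 with Rspo3 in WT, but with Rspo2 in both genotypes and with Rspo1 in KO other members differed by more than Fzd2. With Rspo3 it was at 9.00, 12.3 and 10.8 CPM in WT at 100 ng/ml and at 1.20, 1.25 and 1.30 CPM at 5 ng/ml. With Rspo1 it was at 13.1, 19.5 and 19.0 CPM against 3.70, 4.35 and 4.20 CPM, and with Rspo2 at 28.3, 19.7 and 43.8 CPM against 8.95, 8.95 and 7.85 CPM. The WT libraries of the 2 doses were apart with every ligand, and Fzd2 rose by 2.37, 1.82 and 1.65 on the log2 scale in that order of ligands (SE 0.29 each). In KO it rose by 1.52 with Rspo1 and by 2.27 with Rspo3 (SE 0.36 each), and with Rspo2 the log2 difference was 0.29.

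Fzd6 and Fzd9 were also higher at 100 ng/ml in 15 of 15 pairs. In WT Fzd6 was at 21.3, 17.4 and 23.0 CPM with 100 ng/ml of Rspo3 and at 8.20, 6.15 and 8.55 CPM with 5 ng/ml. It rose by 1.32 on the log2 scale there and by 1.02 with Rspo1 (SE 0.19 each), but with Rspo2 the doses overlapped, at 26.8, 20.4 and 31.3 CPM against 22.0, 19.9 and 20.2 CPM (log2 difference 0.31, limma adjusted p = 0.233). In KO Fzd6 was called with Rspo1 (0.81, SE 0.24) and Rspo3 (1.41, SE 0.24). Fzd9 was a low gene at 5 ng/ml, at 0.10 to 0.70 CPM in the 9 WT libraries, and it was at 0.80 to 6.35 CPM at 100 ng/ml. It passed in all 5 dose comparisons other than Rspo2 in KO, with log2 differences of 0.76 to 1.96 on a scale with 1 CPM added. At 5 ng/ml it reached the 1 CPM required for testing only in KO with Rspo2. In these 5 comparisons Fzd9 was thus tested through its libraries at 100 ng/ml, and its 5 calls are counted among the 29. Fzd1 was higher in 14 of 15 pairs and called only with Rspo3 in WT (log2 difference 1.21, SE 0.50, limma adjusted p = 0.0471), where libraries of the 2 doses overlapped. Fzd3 was higher in 14 of 15 pairs and was not called.

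Fzd4 and Fzd5 moved the other way. Fzd5 with Rspo1 was at 330, 486 and 457 CPM in WT10, WT5 and WT30 at 100 ng/ml and at 629, 897 and 787 CPM at 5 ng/ml. With Rspo2 it was at 245, 342 and 210 CPM against 592, 731 and 488 CPM, and with Rspo3 at 495, 635 and 426 CPM against 689, 726 and 598 CPM. The doses did not overlap with Rspo1 and Rspo2, where Fzd5 fell by 0.87 and 1.19 on the log2 scale (SE 0.24 each, limma adjusted p = 0.00462 and 0.000903). With Rspo3 they overlapped (log2 difference -0.39, SE 0.24, limma adjusted p = 0.188). In KO Fzd5 was at 258 and 364 CPM against 785 and 712 CPM with Rspo1, and at 273 and 483 CPM against 614 and 690 CPM with Rspo3. It fell there by 1.28 and 0.84 on the log2 scale (SE 0.29 each). With Rspo2 in KO it was at 221 and 399 CPM against 346 and 381 CPM, which overlap.

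Fzd4 was lower at 100 ng/ml in 15 of 15 pairs. In WT with Rspo2 it was at 22.1, 23.1 and 24.4 CPM at 100 ng/ml and at 58.4, 36.4 and 73.4 CPM at 5 ng/ml, and it fell by 1.19 on the log2 scale (SE 0.22, limma adjusted p = 0.000388). In KO with Rspo3 it was at 23.5 and 23.8 CPM against 53.6 and 59.0 CPM, and it fell by 1.22 (SE 0.27). The other calls of Fzd4 were falls by 0.73 with Rspo1 and by 0.54 with Rspo3 in WT and by 0.93 with Rspo1 in KO, and in the second of these the libraries of the 2 doses overlapped. Fzd8 was lower in 13 of 15 pairs, with log2 differences of -0.26 to -0.47, and was not called with any ligand.

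**Figure D3:**
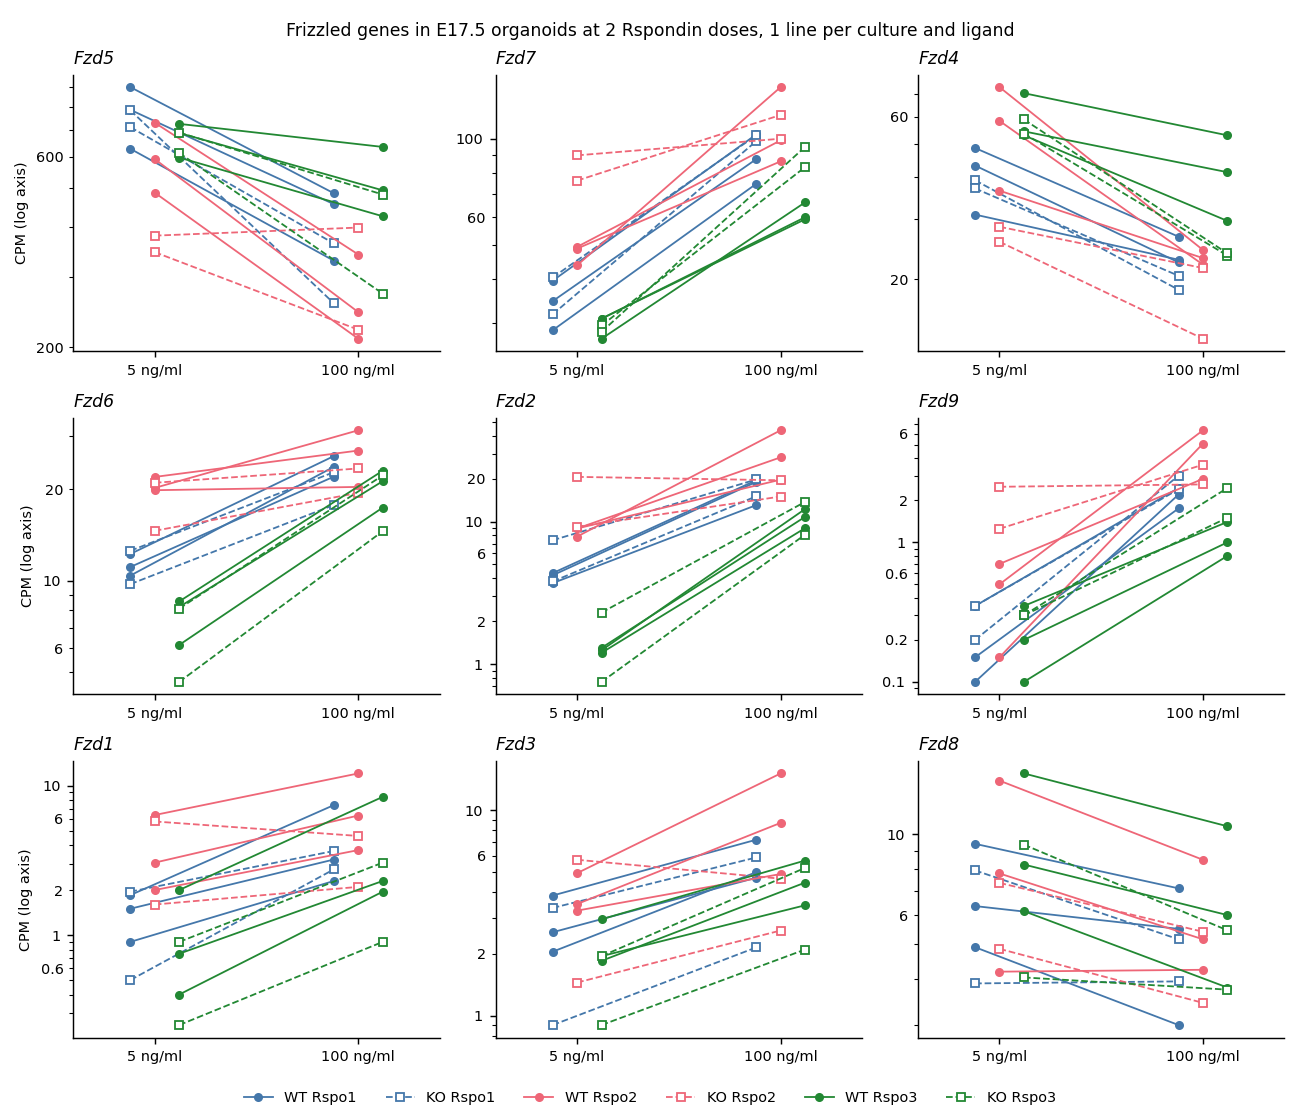
CPM of Frizzled genes at 5 and 100 ng/ml of Rspondin, on a log axis, with a line for each pair of libraries of the same culture and ligand. Lines of Fzd7 rise in 15 of 15 pairs and lines of Fzd4 fall in 15 of 15, while for Fzd5 14 of 15 fall.

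The opposite moves show in the make-up of the family. In WT organoids the Fzd5 share of the summed CPM per kilobase ran from 69.3 to 87.2% at 5 ng/ml (median 83.8%, n = 9) and from 33.4 to 76.9% at 100 ng/ml (median 61.4%, n = 9). The Fzd7 share ran from 4.92 to 9.51% at 5 ng/ml (median 6.26%) and from 12.2 to 34.0% at 100 ng/ml (median 21.1%), so that the doses did not overlap for Fzd7. In KO organoids the Fzd7 share was 5.26 to 21.5% at 5 ng/ml and 19.9 to 36.4% at 100 ng/ml (n = 6 each). The family sum itself was 102 to 149 CPM per kilobase in WT at 5 ng/ml and 78.1 to 120 at 100 ng/ml.

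The dose effect was set against the rest of the transcriptome in 2 further ways. At 100 ng/ml all tested genes had a median log2 difference of 0.17 to 0.28 in WT, and of 0.19, 0.04 and 0.24 in KO with Rspo1, Rspo2 and Rspo3. TMM scaling, which takes most of this median out, lowered the share of higher calls among all called genes from 76.6 to 48.7% with Rspo1, from 72.7 to 42.3% with Rspo2 and from 73.4 to 54.1% with Rspo3 in WT, and in KO from 73.6 to 46.9% with Rspo1 and from 73.6 to 52.9% with Rspo3. When every gene with a nonzero value was tested, Fzd1 and Fzd4 in WT and Fzd5 in KO lost their calls with Rspo3 (limma adjusted p of 0.102, 0.0865 and 0.0535). Under TMM the tested members kept their directions in the dose comparisons, Fzd6 in KO with Rspo1 and Fzd1 in WT with Rspo3 lost their calls, and Fzd5 in WT with Rspo3 gained one (log2 difference -0.65, adjusted p = 0.041). With the culture as a block, since libraries of a culture share their source, there were 41 calls, among them all 29. In that fit 64.1%, 47.5% and 61.8% of genes were called with Rspo1, Rspo2 and Rspo3 in WT, and 43.8%, 1.17% and 55.1% in KO. Fzd1 was then called in 4 more comparisons, with log2 differences of 1.03 and 0.78 with Rspo1 and Rspo2 in WT and of 0.99 and 0.85 with Rspo1 and Rspo3 in KO (limma adjusted p of 0.000413 to 0.0118). Fzd3 was called in 5, at 0.81 with Rspo1 and 0.76 with Rspo3 in WT, with Rspo2 in WT as well, and at 0.70 with Rspo1 and 0.89 with Rspo3 in KO (limma adjusted p of 0.000144 to 0.0129). The other added calls were in WT, of Fzd6 with Rspo2 (limma adjusted p = 0.0266) and of Fzd5 and Fzd8, both lower, with Rspo3 (limma adjusted p = 0.0482 and 0.0497). No member was called with Rspo2 in KO in either fit.

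**Figure D4:**
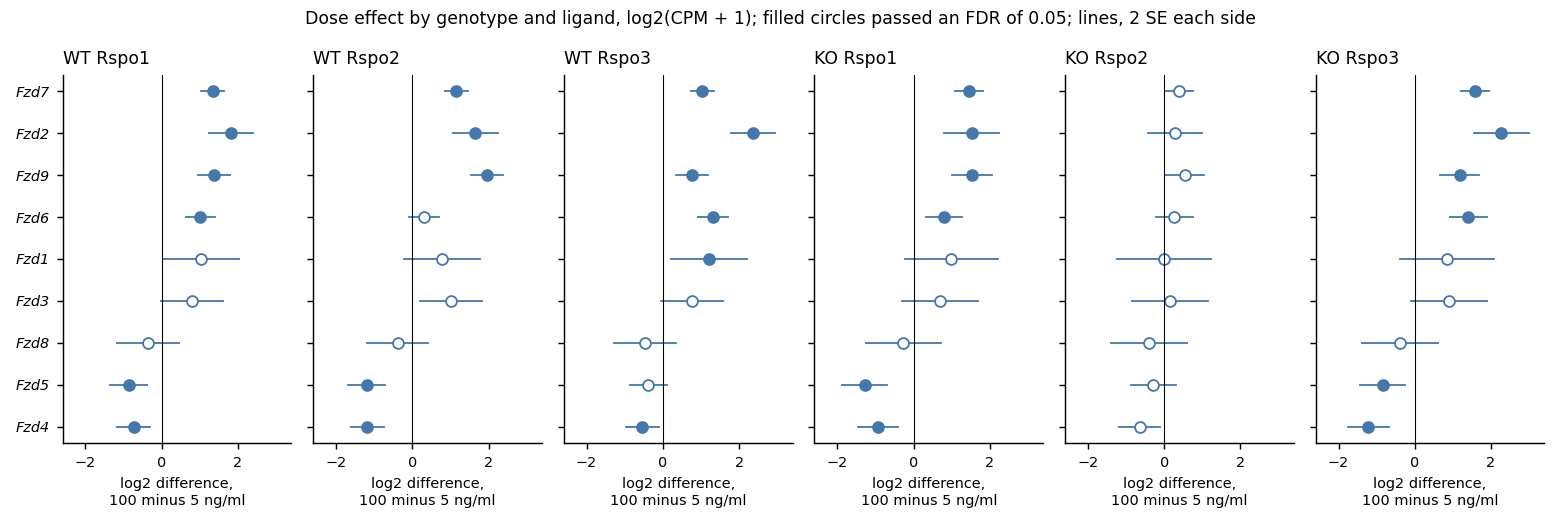
Log2 difference in CPM + 1 between 100 and 5 ng/ml for each Frizzled gene, ligand and genotype, with bars of 2 SE. Fzd2, Fzd6, Fzd7 and Fzd9 lie above 0 and Fzd4 and Fzd5 below it, and the values with Rspo2 in KO lie nearest 0 for Fzd2, Fzd5, Fzd6, Fzd7 and Fzd9.

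The dose response with Rspo2 in KO rested on 2 unlike cultures. In KO2 Fzd7 was at 100.2 CPM with 100 ng/ml and at 89.9 CPM with 5 ng/ml, and Fzd2 was at 19.5 and 20.6 CPM. In KO7 the values were 117 and 76.2 CPM for Fzd7 and 15 and 9.20 CPM for Fzd2. The single pair that went against the others for Fzd1, Fzd2, Fzd3 and Fzd5 was KO2 with Rspo2 each time. In this same culture at 5 ng/ml of Rspo2 the 5 stem-cell markers summed to 2072 CPM, against 1635 CPM at 100 ng/ml and 40.7 to 694 CPM in the other libraries at 5 ng/ml. Their part in the Frizzled values was not tested.

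Whether the dose response differed between genotypes was tested as an interaction. Without regard to culture, 0 of 27 tests of members were called by limma, where 0%, 0.439% and 0% of genes were called with Rspo1, Rspo2 and Rspo3. At an unadjusted p under 0.05 by limma there were 0, 4 and 1 members in that order. This is a looser limit, for which the share of genes is not given here. With the culture as a block, 3 members were called with Rspo2, against 3.97% of genes, and none with Rspo1 or Rspo3, against 0% and 0.00523%. The dose effect in KO was smaller than in WT by a log2 difference of -1.36 for Fzd2 (SE 0.31, limma adjusted p = 0.0180), of -0.77 for Fzd7 (SE 0.21, limma adjusted p = 0.0479) and of -1.42 for Fzd9 (SE 0.30, limma adjusted p = 0.0129).

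KO and WT organoids were also compared at each ligand and dose. Of 54 tests of members 3 were called, and all were with Rspo2 at 5 ng/ml, where 4.54% of genes were called. Fzd7 was at 76.2 and 89.9 CPM in KO and at 49.5, 48.9 and 43.9 CPM in WT, and it was higher in KO by 0.79 on the log2 scale (SE 0.17, limma adjusted p = 0.0108). Fzd4 was at 25.8 and 28.5 CPM in KO and at 58.4, 36.4 and 73.4 CPM in WT, and was lower by a log2 difference of -0.97 (SE 0.24, limma adjusted p = 0.0267). Fzd9 was at 1.25 and 2.5 CPM against 0.50, 0.70 and 0.15 CPM (log2 difference 0.97, SE 0.24, limma adjusted p = 0.0232). The genotypes did not overlap in these 3 genes. Without KO2 none of the 3 was called, with log2 differences of 0.68, -1.04 and 0.65 for Fzd7, Fzd4 and Fzd9, and without WT10 or without WT30 Fzd7 alone was. Without KO7 Fzd4 was not called and Fzd2 was. When every gene with a nonzero value was tested, Fzd4 and Fzd9 lost their calls (limma adjusted p = 0.0560 and 0.0558). In the other 5 comparisons no member was called. At the looser limit of an unadjusted p under 0.05 there were 0 to 3 members, and the share of genes is not given here. The shares of genes called were 0.125%, 0.214%, 1.20%, 0.193% and 0.868% with Rspo1 at 5 and 100 ng/ml, Rspo2 at 100 ng/ml, and Rspo3 at 5 and 100 ng/ml. A fit that estimates the correlation within cultures called the same 3, where 4.78% of genes were called with Rspo2 at 5 ng/ml, and 0.167%, 0.293%, 1.51%, 0.288% and 1.27% in the other 5 comparisons in the order above. At 5 ng/ml of Rspo1 and Rspo3 the intervals of the KO minus WT difference for Fzd7 were -0.26 to 0.41 and -0.36 to 0.30.

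The 3 ligands were set side by side at the same dose, in 12 comparisons that share libraries. At 5 ng/ml in WT, Fzd2 was at 8.95, 8.95 and 7.85 CPM with Rspo2, at 3.70, 4.35 and 4.20 CPM with Rspo1 and at 1.20, 1.25 and 1.30 CPM with Rspo3, with no overlap between ligands. Its log2 differences were 0.91 for Rspo2 minus Rspo1, -1.17 for Rspo3 minus Rspo1 and -2.09 for Rspo3 minus Rspo2, and all 3 passed. Rspo2 also gave higher Fzd6 than Rspo1 (log2 difference 0.82) and higher Fzd7 (0.46, lost under TMM scaling, adjusted p = 0.108), and Rspo3 gave lower Fzd6 and Fzd7 than Rspo2 (-1.34 and -0.66). The members called in these 3 comparisons were 3, 1 and 3 of 9, against 22.8%, 16.4% and 44.9% of genes. Fzd4 and Fzd5 were not called between ligands at 5 ng/ml in WT, and their largest log2 difference was 0.54, for Fzd4 with Rspo3 minus Rspo1 (limma adjusted p = 0.0949).

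At 100 ng/ml in WT, Rspo3 and Rspo2 differed in 5 of 9 members, against 12.7% of genes. Fzd2, Fzd7 and Fzd9 were lower with Rspo3, with log2 differences of -1.37, -0.78 and -1.44, and Fzd4 and Fzd5 were higher, by log2 differences of 0.77 and 0.97. For Fzd5 this was 495, 635 and 426 CPM with Rspo3 against 245, 342 and 210 CPM with Rspo2. Neither Rspo2 nor Rspo3 differed from Rspo1 in any member at this dose by limma, where 0.204% and 0.00523% of genes were called. At the looser limit of an unadjusted p under 0.05 there were 3 and 4 members, and the share of genes is not given here.

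In KO at 5 ng/ml Rspo3 and Rspo2 differed in 6 of 9 members, against 46.7% of genes: Fzd2, Fzd6, Fzd7 and Fzd9 were lower with Rspo3, by log2 differences of -2.63, -1.37, -1.48 and -1.11, and Fzd4 and Fzd5 were higher, by 1.03 and 0.84. Rspo2 and Rspo1 differed in 4 members, against 17.9% of genes, with Fzd2, Fzd7 and Fzd9 higher (1.23, 1.18 and 1.14) and Fzd5 lower (-1.04) with Rspo2. Rspo3 and Rspo1 differed in Fzd2 (-1.40) and Fzd6 (-0.75, lost under TMM scaling, adjusted p = 0.0592), against 16.2% of genes. Whether these differences between ligands differ from those in WT was not tested. In KO at 100 ng/ml no member was called in the 3 comparisons by limma and none had an unadjusted p under 0.05, where 0.0105%, 0% and 0% of genes were called. Over the 12 ligand comparisons there were 24 calls of members, and without WT10 there were 15.

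With the culture as a block the 12 ligand comparisons gave 43 calls, among them all 24. In WT at 5 ng/ml 35.9%, 29.1% and 55.3% of genes were then called for Rspo2 minus Rspo1, Rspo3 minus Rspo1 and Rspo3 minus Rspo2, and at 100 ng/ml 1.31%, 15.2% and 26.2%. In KO the shares were 31.9%, 26.3% and 57.1% at 5 ng/ml and 0.0209%, 0% and 0.00523% at 100 ng/ml. Fzd1 joined with 5 calls, each with the higher value under Rspo2: log2 differences were 0.91 and -1.20 against Rspo1 and for Rspo3 minus Rspo2 in WT at 5 ng/ml, -0.76 for the latter at 100 ng/ml, and 0.99 and -1.44 in KO at 5 ng/ml. At 100 ng/ml in WT, where neither ligand had differed from Rspo1, Rspo2 now gave less Fzd5 (-0.68, limma adjusted p = 0.0418) and more Fzd9 (0.84, limma adjusted p = 0.0303). Rspo3 gave less Fzd2, Fzd7 and Fzd9 (-0.63, -0.50 and -0.60) and more Fzd4 (0.73, limma adjusted p = 0.0115) than Rspo1. At 5 ng/ml in WT Rspo3 gave more Fzd4 (0.54, limma adjusted p = 0.0167) and less Fzd6 (-0.51, limma adjusted p = 0.00155) than Rspo1, and less Fzd3 than Rspo2 (-0.59), and in KO it gave more Fzd4 than Rspo1 (0.55) and less Fzd3 than Rspo2 (-0.78). The remaining added calls were Fzd3 and Fzd6, both lower with Rspo3 than with Rspo2 in WT at 100 ng/ml (-0.84 and -0.32), and Fzd6, higher with Rspo2 than with Rspo1 in KO at 5 ng/ml (0.62).

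Other genes of the pathway were counted on fixed lists, and a gene was counted as higher or lower only if it was called. At E16.5, where 0.527% of all genes were called, Lgr5 was the gene called among 4 tested of Frizzled turnover (log2 difference -0.97 in KO, limma adjusted p = 0.0795), and Axin2, a negative-feedback target of beta-catenin, was the one called among the Wnt targets (0.92, limma adjusted p = 0.0795), while co-receptors, decoys, transducers, polarity partners and ligands had none. From E16.5 to E18.5, where 49.6% of all genes were called, 3 of 4 turnover genes rose: Lgr5 by 1.38, Lgr4 by 0.86 and the ligase gene Rnf43 by 0.70 on the log2 scale. Of 4 tested decoys 3 fell, the secreted Frizzled-related proteins Sfrp1 (-4.29) and Sfrp2 (-1.06) and the Dickkopf family member Dkk3 (-3.11). Of 11 co-receptors and partners, 1 rose, which was Lrp5, and 3 fell, and of 5 tested Wnt ligands 1 fell, Wnt5a (-2.47).

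Between E18.5 and the adult, where 19.0% of all genes were called, 8 of 11 Wnt targets rose, among them Ephb3 (3.47), Tnfrsf19 (3.51) and Cd44 (2.33), and none fell. No turnover gene of 4 was called. Of 9 tested co-receptors and partners 2 fell, the glypican Gpc3 (-7.01) and the Wnt5a receptor Ror2 (-1.58), and of 12 transducers 3 rose, Lef1 (2.60), Csnk1e (1.16) and Dvl1 (0.91). Wnt3 was the ligand that rose (2.07) of 7 tested, and it is a Paneth cell product. In the ileum against the duodenum, where 6.88% of all genes were called, Sfrp5 (-3.72), Dvl1 (-0.78), Vangl2 (-1.19) and Prickle2 (-1.54) were lower and Tnfrsf19 (0.87) was higher. No gene of these lists was called in the Cre comparison.

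In the organoids the Wnt targets and the turnover genes were on the side of Fzd2 and Fzd7. At 100 against 5 ng/ml, where 21.9 to 40.9% of all genes were higher in the comparisons other than Rspo2 in KO, 11 of 11 Wnt targets were higher with Rspo1 in both genotypes and with Rspo2 in WT, 9 of 11 with Rspo3 in both genotypes, and 2 of 11 with Rspo2 in KO. Of 4 tested turnover genes 3 or 4 were higher in each dose comparison other than Rspo2 in KO, where 0 were. With Rspo2 at 5 ng/ml 9 of 11 targets were higher in KO than in WT, against 4.54% of all genes called. Median log2 differences of the targets ran from 2.05 to 2.80 in the 5 dose comparisons other than Rspo2 in KO, where it was 0.46. Of the 5 Paneth markers 4 or 5 were called higher, and of the 5 enterocyte markers 1 to 3 were called lower, in those same 5 comparisons. With Rspo2 in KO the counts were 0 and 0. The part of such cells in the Frizzled values was not tested.

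The genes most like each member were found by Pearson's r of log2(CPM + 1) over the libraries of a table, as a description, since libraries share groups, cultures and depth. Over the 30 organoid libraries and 10630 genes, Fzd7 was most like Rbfox2 (0.977), Hs2st1 (0.976) and Rffl (0.975), and Fzd2 most like Znrf3 (0.985), Esrrg (0.984) and Mex3d (0.984). Fzd4 was most like Tbc1d14 (0.959), and Fzd5, after its overlapping Gm38058, most like Mal2 (0.964) and Gcnt4 (0.962). Among members in the organoids, r was 0.925 for Fzd2 and Fzd7, 0.942 for Fzd2 and Fzd6, 0.714 for Fzd4 and Fzd5, -0.841 for Fzd5 and Fzd7 and -0.825 for Fzd4 and Fzd7. Over the 15 sorted libraries and 10917 genes, Fzd4 was most like Mttp (0.979), Fras1 (0.968) and Mertk (0.962), Fzd5 most like Mep1a (0.921), and Fzd1 most like Clic4 (0.934), Bin1 (0.927) and Serpinh1 (0.925). There r was 0.815 for Fzd4 and Fzd5, 0.814 for Fzd1 and Fzd4, -0.721 for Fzd1 and Fzd7 and -0.404 for Fzd5 and Fzd7.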

How the data were processed

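The authors deposited 2 tables of CPM (reads of a gene scaled to the library's total of reads on genes), in steps of 0.05, for 15 sorted-cell libraries (Ovation SoLo kit) and 30 organoid libraries (NEBNext kit after rRNA depletion), sequenced as paired reads. The submitters' processing notes name Trimmomatic 0.36, STAR 2.5.3a, HTSeq 0.9.1 and GRCm38.p4/mm10. All values here start from those deposited CPM.

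Groups followed the submitters' labels. A gene was tested if it reached 1 CPM in a number of libraries equal to the smaller group's size. Tests were made with limma 3.58.1 in R 4.3.3, with an intensity trend, on log2(CPM + 1), with Benjamini-Hochberg adjustment over all genes tested. Only the compared groups entered each sorted-cell fit (adjusted p of 0.1 and 1.5-fold), and all 30 organoid libraries entered 1 fit of 12 groups (adjusted p of 0.05). Fold changes on this scale understate those of low genes, and intervals are 2 SE to each side. For E16.5, edgeR 4.0.16 was run on whole reads recovered from the CPM steps. Scripts were tested on simulated data. Exon lengths and positions came from GENCODE vM21 (52403 of 52636 IDs matched), and upstream sequence from RefSeq on GRCm38.p6, which gave a window for 6 members.

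All 10 members were named, with at most 3 called pathway genes per list and comparison, and the 3 genes most like a member of at least 10 CPM. The members and the lists were chosen with earlier results of these data known. The numbers in the labels mark litters at E16.5, mice for duodenum and ileum, and cultures for organoids. The deviations of same-numbered libraries correlated across genes at -0.023 for litters, 0.226 for mice and 0.349 to 0.759 for cultures. P-values set a difference against the spread between these libraries, which limma moderates over all genes. Without a block they treat libraries of the same mouse or culture as independent. Read counts and their floors cover counting error only.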

Additional observations from a re-analysis of the deposited data

Results flagged for a closer look

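Fzd3 at 8.25 CPM in ileum library 2 was the highest of the 4 adult HE libraries of the Lgr5-DTReGFP strain, the others being at 0.45, 0.75 and 1.25 CPM. The Cre HE ileum libraries had 4.20 and 8.80 CPM. The gap of ileum library 2 to the next of the 4 was 0.897 of their range, above Dixon's 95% limit for 4 values, which about 1 in 20 groups passes by chance. The check was made on the lowest and the highest library of each of the 10 members, and no other value passed. Ileum library 2 also had the highest Fzd9 of the 4, 9.85 CPM, and the largest Paneth marker sum, 26396 CPM.

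The dose effect of Rspo2 differed between KO and WT organoids when the culture was a block. The log2 differences of the dose effects, KO minus WT, were -1.36 for Fzd2, -0.77 for Fzd7 and -1.42 for Fzd9, and without the block the limma adjusted p were 0.208, 0.160 and 0.0597.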

How the results depend on the processing

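Of 793 values of single genes recomputed under other settings for 76 results, 696 kept their direction and their side of the threshold, 20 passed it newly, 55 lost it and 22 changed sign, the last all without a call. The causes were not tested. Members called at E16.5 were 0 under the settings tried, the litter replicate block and edgeR included. The exception was Fzd10 in the fit of all 15 sorted libraries, which was tested through its KO pools. From E16.5 to E18.5 the count of 1 became 2 with TMM scaling, 3 with a replicate block on label numbers that pair nothing (Fzd1 and Fzd3 added), 2 in the fit of all 15 libraries, and 0 to 4 with a library left out. From E18.5 to the adult the count of 5 became 3 when every gene with a nonzero library was tested, 7 with the mean of the 2 regions of each mouse, 4 with a replicate block on numbers (Fzd2 lost) and 0 to 7 with a library left out. Between ileum and duodenum the count of 1 became 0 with every gene tested and 0 to 1 with a library left out, and stayed 1 with the mouse as a block. The Cre count was 0 throughout. The shares of all genes called under these other sorted-cell settings are not given here, so the changed counts are not read as results. In organoids, dose calls were 24 to 30, genotype calls 0 to 3, ligand calls 15 to 23 and interaction calls 0 to 2 with a culture left out. Genotype calls were 1 with every gene tested and 3 with the culture block, ligand calls 43 and interaction calls 3 with that block. The block changed no other call between groups than those named here and in the text. Without length, Fzd5 made up 66.4% of the family sum in sorted cells instead of 57.7%.

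Where a left-out library leaves 1 in a group, that library is assumed to vary like the others in the fit. Log2 differences changed sign as follows. With the Cre genotypes of the study's sample list, Fzd1 was -0.024, Fzd2 -0.037, Fzd3 -0.11, Fzd4 0.46, Fzd5 0.27, Fzd6 -0.16 and Fzd9 -0.0052. With a Cre library left out, Fzd1 ran from -0.039 to 0.29, Fzd3 from -0.099 to 0.81, Fzd4 from -0.50 to 0.12, Fzd5 from -0.48 to 0.18 and Fzd8 from -0.18 to 1.12. With an E16.5 pool left out, Fzd1 ran from -0.73 to 0.30 and Fzd4 from -0.36 to 0.24. Between regions, Fzd5 ran from -0.52 to 0.061, Fzd6 from -0.17 to 0.71 and Fzd9 from -0.85 to 1.59. In the adult against E18.5, Fzd6 was -0.012 with the duodenum alone and ran from -0.069 to 0.31 with a library left out.

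The edgeR alternative was not run for the other sorted comparisons, so their calls rest on limma alone. At the depth of the E16.5 HE pools a member under 2.35 CPM in pool 1 or 1.51 CPM in pool 2 rests on 3 reads or fewer, as Fzd9 did, at 0 CPM in both. Fzd10 at 2.05 CPM in pool 2 lay above that limit.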
